A study of Mus musculus with 4 samples.

Results

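SCL, the transcription factor encoded by Tal1, was mapped across the genome of FLK1+ mesoderm, and the peaks described here are those at its own gene, at the neighbours Stil and Pdzk1ip1 and at the paralogue Lyl1. A peak was taken when a transcription start site (TSS) of 1 of these 4 genes was the closest TSS of any protein-coding gene to its summit, the position of highest signal within the peak. The rule found 9 of 12885 peaks, of which 7 lay in the Tal1 locus on chromosome 4 and 2 at Lyl1 on chromosome 8. It used position only, so strength and sequence were free to vary. By this rule Tal1 had 4 peaks, Pdzk1ip1 had 3, Lyl1 had 2 and Stil had 0.

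ChIP-seq, the sequencing of DNA recovered with an antibody against a chromatin-bound protein, was performed on wild-type ES cells of strain C57Bl/6 X Sv129, named J1 in the peak names, that had formed embryoid bodies (EBs) for 3.5 days and had been sorted for the VEGF receptor FLK1. There were 2 libraries, from 2 separate differentiations, precipitated with an in-house SCL rabbit antiserum, and 2 input libraries made without antibody. The authors deposited 1 list of peaks called on the merged libraries, so each peak has a single value and no spread between the differentiations could be given. Expression was not measured in these libraries, so the identity of the sorted cells was not checked here, and a signal summed over the population cannot tell fewer cells bound from less binding per cell.

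SCL and LYL1 are basic helix-loop-helix (bHLH) proteins that bind DNA as heterodimers with the E proteins, and SCL is required for the formation of all blood cells. In blood cells SCL sits in a complex with LMO2, LDB1 and GATA factors that contacts an E-box, or only its CTG part, together with a nearby GATA site. Tal1 is known for a set of separate control elements spread over the region from a few kb before its promoter to beyond Pdzk1ip1. Among them are a stem cell enhancer 19 kb downstream of the promoter and an erythroid enhancer past the 3′ end of Pdzk1ip1. STIL is a centrosomal protein whose gene is joined to TAL1 by a deletion in human T-cell leukaemia, and PDZK1IP1 is a small membrane protein. LYL1 is the close relative of SCL and can stand in for some of its functions in adult blood stem cells.

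The sequences that carry the description are given first, from genome build NCBIM37 (mm9), 5′ to 3′. Peaks are named by the gene and the distance of their summit in kb from its annotated start, and the peaks that cover the starts themselves are called the promoter peaks. In 5 of the stretches capitals mark the composite of CTG and GATA with 7 to 9 bp between them. In the stretch of the Tal1 promoter peak they mark a GATA motif read on the minus strand, and at Lyl1 −1.4 kb they mark E-boxes (CANNTG). The stretch of the Lyl1 promoter peak is kept to 30 bases because it lies in an untranslated exon.
Tal1 −8.1 kb, chr4:114720931-114721000, plus strand: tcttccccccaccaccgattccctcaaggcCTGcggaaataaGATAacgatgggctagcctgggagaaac
Tal1 −6.5 kb, chr4:114722465-114722544, plus strand: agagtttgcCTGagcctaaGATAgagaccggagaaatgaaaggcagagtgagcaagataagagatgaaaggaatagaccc
Tal1 promoter, chr4:114729234-114729334, plus strand: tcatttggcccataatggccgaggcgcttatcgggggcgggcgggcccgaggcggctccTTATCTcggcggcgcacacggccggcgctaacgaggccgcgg
Tal1 +19.3 kb, chr4:114748303-114748382, plus strand: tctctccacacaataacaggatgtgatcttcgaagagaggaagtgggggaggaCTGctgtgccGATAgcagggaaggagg
Tal1 +39.5 kb, chr4:114768502-114768601, plus strand: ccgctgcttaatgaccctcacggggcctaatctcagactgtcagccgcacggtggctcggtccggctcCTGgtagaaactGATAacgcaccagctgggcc
Lyl1 promoter, chr8:87225536-87225565, minus strand: tggctgcCTGgccgcggctGATAagaagca
Lyl1 −1.4 kb, chr8:87223943-87223972, plus strand: ttgggctCAGCTGtctgCAGTTGgtgtagt

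SCL was bound at 7 separate positions of the Tal1 locus, from 8.1 kb before the Tal1 start to 47.3 kb after it, of which 4 were assigned to Tal1 and the last 3 to Pdzk1ip1. The strongest of these was not at the promoter but past the 3′ end of Pdzk1ip1, and the Tal1 promoter came next. Tal1 (ENSMUSG00000028717.6) runs on the plus strand from chr4:114729031-114744360. Having 4 peaks placed Tal1 among the 3.65% of 22238 protein-coding gene names with at least 4, whereas 71.0% of gene names, Stil among them, had no peak. Strength is given as fold enrichment, the ChIP fragments stacked at the summit over the local input background, each with 1 added. The Poisson 95% interval of the fragment count is carried to the fold with the background held fixed, and it covers counting error only.

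**Figure D1:**
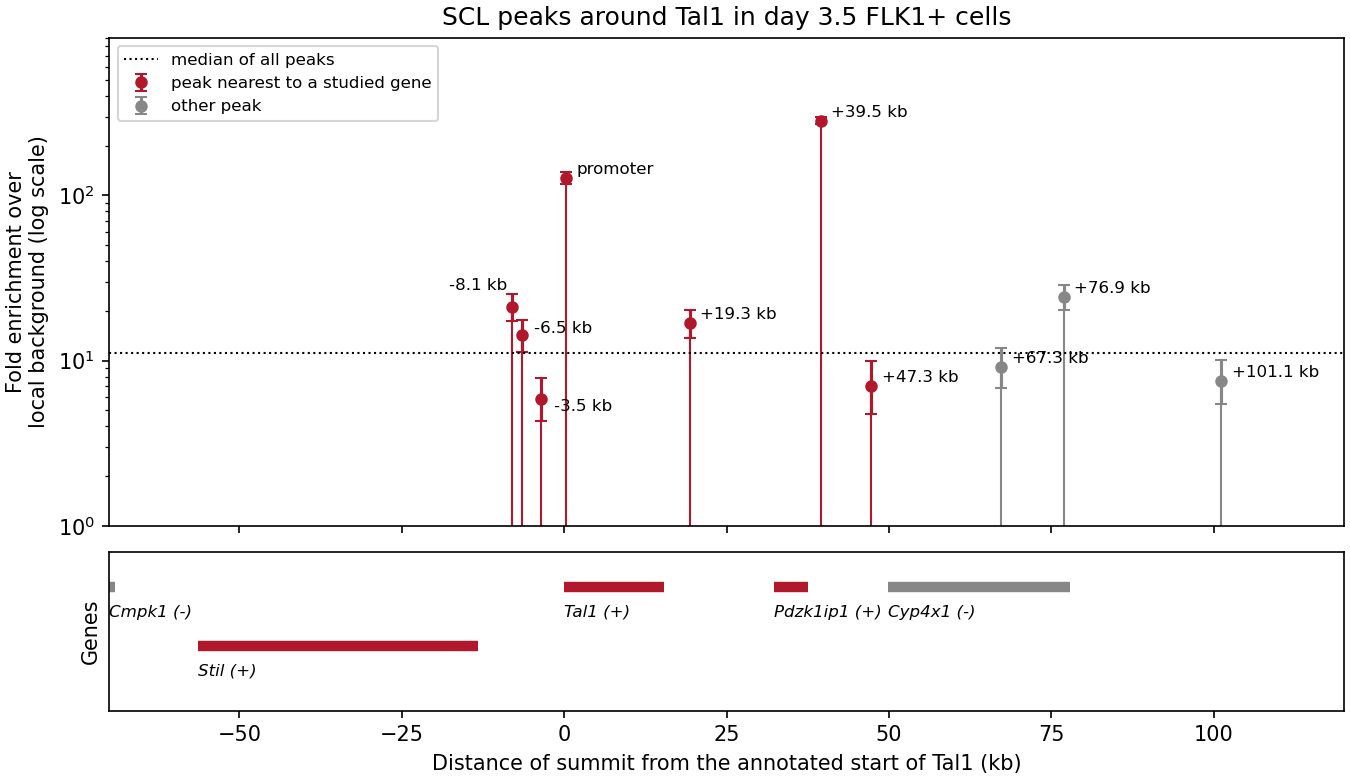
Fold enrichment of SCL peaks (log axis) by the distance of the summit from the annotated start of Tal1 in kb, with genes and their strand below. Points are the pooled values, bars the Poisson 95% interval, red the 7 peaks of the Tal1 locus and grey those closer to other genes, and the dotted line is the median of all peaks, 11.1. The peak at +39.5 kb stands at 283.3 and the promoter peak at 127.4, and the other 5 red points lie at 21.1 or below.

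The Tal1 promoter peak spanned 1725 bp at chr4:114728833-114730557 and was the 6th widest of the list. Its summit, at 114729284, lay in an intron 253 bp after the start of Tal1. The peak covered 3 of the 4 annotated Tal1 starts, at 114729031, 114730043 and 114730416, and not that at 114732113. At the summit 530 fragments (95% interval 485.8 to 577.1) stood over a background of 3.17, a fold of 127.4 (116.8 to 138.7). It ranked 110 of 12885 by fold, 211 by −log10 p and 296 by fragments, and 1.67% of all peaks reached a fold of 100.

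Before the promoter, SCL was bound at 3 intergenic positions between Stil and Tal1, at folds from 5.89 to 21.1. The peak at −8.1 kb, at chr4:114720499-114721273, had 113 fragments (93.1 to 135.9) over a background of 4.40 and a fold of 21.1 (17.4 to 25.3). At −6.5 kb, chr4:114722256-114722727, 80 fragments over 4.70 gave a fold of 14.2 (11.3 to 17.7). The intervals of these 2 peaks overlapped only between 17.4 and 17.7, which does not show that the folds are equal. The peak at −3.5 kb, at chr4:114724970-114725692, was the weakest of all 9 by fold, though not by −log10 p or fragments. It had 45 fragments (32.8 to 60.2) over 6.81 and a fold of 5.89 (4.33 to 7.84), below both of its upstream neighbours. It ranked 12256 by fold, 9992 by −log10 p and 7655 by fragments. An endothelial control element of Tal1 is known a few kb before the promoter, and whether it is this peak was not tested.

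Downstream of Tal1, SCL was bound at about the distance known for the stem cell enhancer, an element active in blood progenitors and endothelium where Ets and GATA factors meet. No file used here gives the coordinates of the known elements, so this peak and the next were set beside them by distance alone. The peak, at +19.3 kb and chr4:114748150-114748495, was narrow, 346 bp, against a median width of 397 bp over all peaks. Its summit held 102 fragments (83.2 to 123.8) over a background of 5.14, and the fold was 16.8 (13.7 to 20.3), above the median of 11.1. Its interval overlapped those of the −8.1 kb and −6.5 kb peaks. Position tied it to Pdzk1ip1, whose nearest start was 12980 bp away, against 16220 bp for the nearest start of Tal1. The nearest other summit was 19049 bp away, which made it the most isolated of the 9.

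The strongest SCL peak of the Tal1 locus lay at +39.5 kb, chr4:114768092-114768756, in the intergenic stretch past Pdzk1ip1, the side on which the erythroid enhancer is known. Its summit was 2008 bp past the 3′ end of Pdzk1ip1, a gene of chr4:114761313-114766504, and 36399 bp from the nearest Tal1 start. The summit held 1915 fragments (1830 to 2003) over a background of 5.76. The fold of 283.3 (270.7 to 296.2) was 2.22 times that of the Tal1 promoter peak, with intervals apart. In the whole list the peak ranked 6 by fold, 3 by −log10 p and 16 by fragments. Pdzk1ip1 itself had no peak over any of its 6 annotated starts. A weak peak followed at +47.3 kb, chr4:114776177-114776438, with 28 fragments (18.6 to 40.5) over 3.14 and a fold of 7.0 (4.73 to 10.01). It was the shallowest of the 9, and its interval overlapped that of the −3.5 kb peak. The study counts fewer bound loci than the deposited list holds, and whether these weak peaks are among them was not analysed here.

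Stil (ENSMUSG00000028718.9, chr4:114672723-114715801), upstream of Tal1 on the same strand, was not the gene of any peak and none of its 6 starts was covered. The summit closest to its body was that at −8.1 kb, 5150 bp away. With genes extended by 10 kb on both sides instead, 3 summits fell to Stil, 5 to Tal1 and 2 to Pdzk1ip1, some to more than 1 gene. Upstream, the next peak outside the rule was at −110.8 kb, with a fold of 8.01 and closest to Foxe3, a forkhead factor gene. Downstream, the peaks just outside it were closest to Cyp4x1, a cytochrome P450 gene on the opposite strand. They lay at +67.3 kb with a fold of 9.10, at +76.9 kb with a fold of 24.3 and at +101.1 kb with a fold of 7.52, so the promoter and +39.5 kb peaks were the highest of this stretch.

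At Lyl1, SCL was bound over the start of the gene and again just before it, and the promoter peak had the highest −log10 p of the entire list. Lyl1 (ENSMUSG00000034041.4) is a short gene on the plus strand of chr8:87225356-87228614 with 1 annotated start, lying within the longer gene Nfix on the other strand. The promoter peak spanned 1002 bp at chr8:87224893-87225894, with its summit at 87225572, 216 bp after the start. The summit fell in an untranslated exon of Lyl1 and an intron of Nfix. It held 2757 fragments (2655 to 2862) over a background of 8.38, a fold of 293.9 (283.0 to 305.1). This ranked 5 by fold, 9 by fragments and 1 by −log10 p, at 5750.

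The second Lyl1 peak, at −1.4 kb and chr8:87223664-87224412, had 234 fragments (205.0 to 266.0) over 6.75 and a fold of 30.3 (26.6 to 34.5). It overlapped the 3′ end of Trmt1, a tRNA methyltransferase gene, and its summit fell in an exon of a transcript of Nfix without coding sequence. The 2 summits were 1600 bp apart, and the promoter peak was the stronger of the pair with intervals far apart. Beyond the rule, further peaks lay within Nfix at +23.4 kb, with a fold of 8.74, and at +29.5 kb, with a fold of 69.9 (64.4 to 75.8) from 582 fragments. Both were closer to a start of G430095P16Rik. The +29.5 kb peak, at chr8:87254463-87255233, was stronger than the −1.4 kb peak, with intervals apart.

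**Figure D2:**
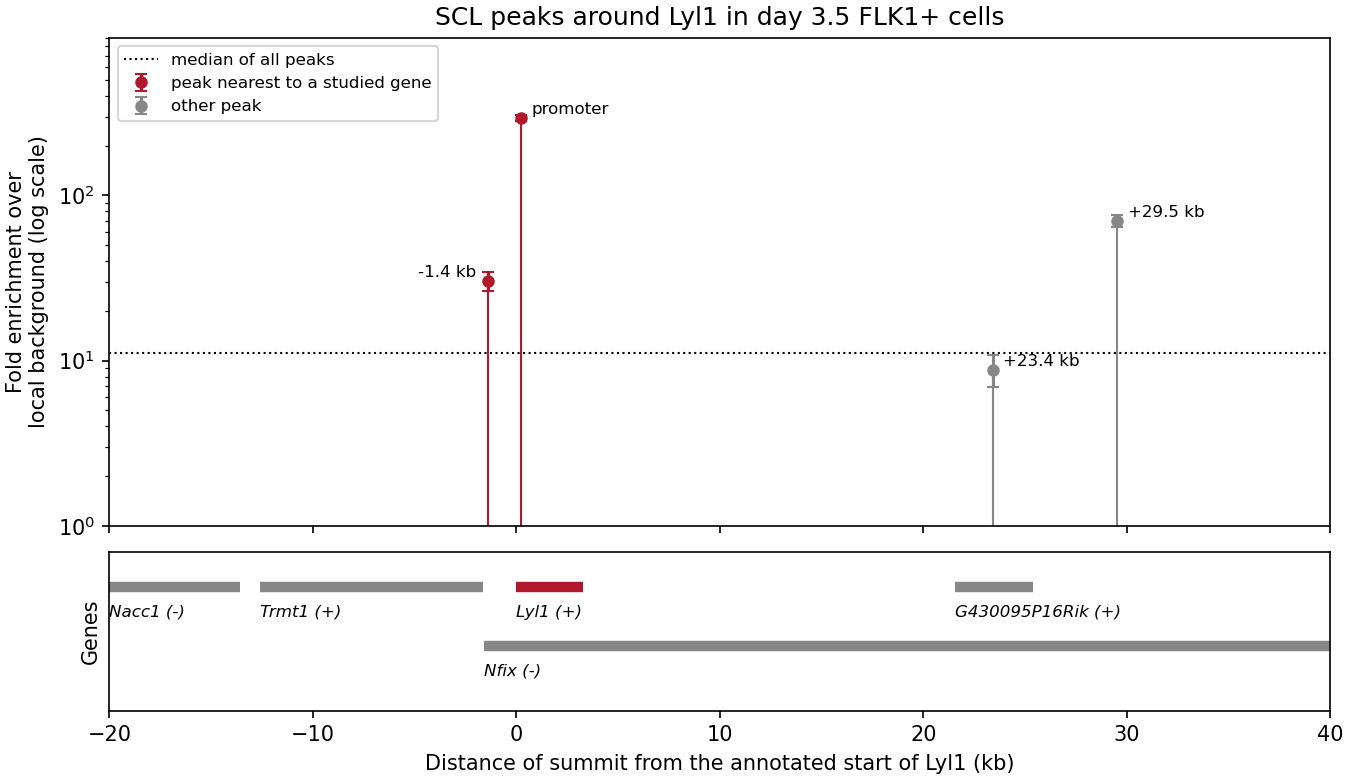
Fold enrichment of SCL peaks (log axis) by the distance of the summit from the annotated start of Lyl1 in kb, with genes and their strand below. Points are the pooled values, bars the Poisson 95% interval, red the 2 Lyl1 peaks and grey those closer to another gene, and the dotted line is the median of all peaks. The promoter peak stands at 293.9, the −1.4 kb peak at 30.3 and the grey peak at +29.5 kb between them at 69.9.

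Ordered by fold, the 9 peaks fell into steps. The Lyl1 promoter and Tal1 +39.5 kb peaks headed the order, their intervals overlapped, and the ratio of their folds was 1.04. The Tal1 promoter followed, 4.20 times above Lyl1 −1.4 kb, and its interval was apart from both neighbours. Lyl1 −1.4 kb was 1.44 times above Tal1 −8.1 kb, again with intervals apart. Tal1 −8.1, +19.3 and −6.5 kb formed a group in which each neighbour overlapped the next, and the same held for +47.3 and −3.5 kb at the foot, 2.03 times below. Of the 8 neighbouring pairs, 4 overlapped and 4 were apart. A fold of at least 100 was reached by 3 of the 9 peaks against 1.67% of all peaks. By gene these were the strongest peaks of Lyl1, Pdzk1ip1 and Tal1, 3 of the 4 genes, and 0.913% of protein-coding gene names had such a peak.

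**Figure D3:**
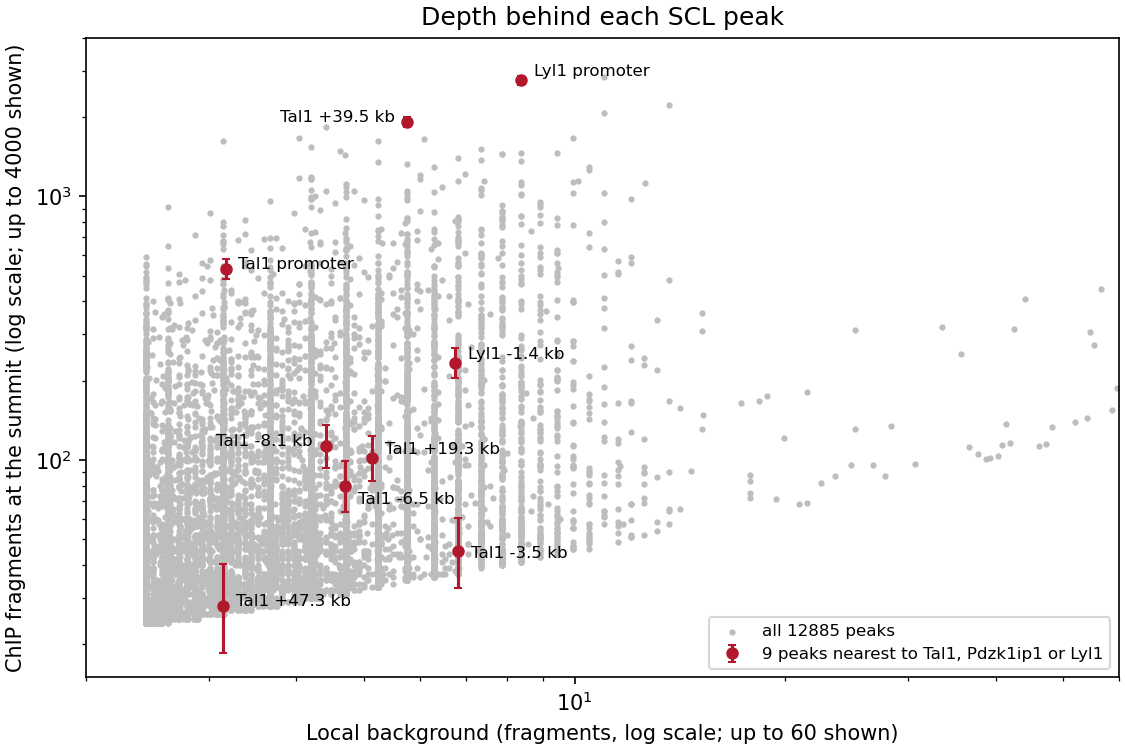
Fragments at the summit against local background, both on log axes, for all 12885 peaks in grey and the 9 peaks of the loci in red with the Poisson 95% interval of their fragments, with grey points past the ends of the axes not drawn. The Lyl1 promoter and Tal1 +39.5 kb peaks lie near the top at 2757 and 1915 fragments, whereas Tal1 +47.3 kb, at 28, and −3.5 kb, at 45, lie near the lower edge for their background.

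The depth behind these values ranged widely, from 28 to 2757 fragments, with a median of 113 against 53 over all peaks. The median fold of the 9 was 21.1 against 11.1, with 7 above the median of the list and 2 below it. Background also differed, with a median of 5.14 fragments against 3.67. Both Lyl1 peaks had a background, 8.38 and 6.75, above the median of 5.24 over the 868 peaks of chromosome 8, and that median was itself above the 3.67 of chromosome 4. The Tal1 promoter, at 3.17, was among the lowest of the 9. The part of this background in the order of folds was not tested. By fragments, the Lyl1 promoter and Tal1 +39.5 kb were first of the 9, at 2757 and 1915. At the foot the order differed from that by fold, with 45 fragments at Tal1 −3.5 kb above 28 at +47.3 kb.

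The composite of CTG and GATA, the pair of sites that the SCL complex is known to contact, was searched on both strands within 50 bp of each summit. It was found in 4 of the 9 peaks, against 32.9% of all peaks. These were Tal1 −8.1 kb (10 bp from the summit), −6.5 kb (28 bp) and +19.3 kb (23 bp), and the Lyl1 promoter (14 bp). The strongest Tal1 peak, +39.5 kb, had its composite just outside the window at 58 bp, and the Tal1 promoter had one only at 379 bp. Anywhere within the peak, 6 of 9 held the composite against 47.5% of all peaks, a share that grows with width. The Lyl1 promoter held 2 more, at 517 and 586 bp. Of the 8 composites in the member peaks, 5 had 9 bp between CTG and GATA, 2 had 7 bp and 1 had 8 bp.

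A GATA motif, taken as GATA with A or T before it and A or G after it, was in 4 of the 9 windows against 73.2% of all peaks. In the Lyl1 promoter 1 of its 2 matches lay over the summit, and in the Tal1 promoter the single match was 9 bp away. Such a match can be the GATA of a composite. This was so at Tal1 −8.1 kb and for 1 of the 2 matches at both Tal1 −6.5 kb and the Lyl1 promoter. It was not so at Tal1 +19.3 kb, where C precedes the GATA. The CTG of a composite may also lie in an E-box, but no E-box was found in the windows of the 4 peaks with a composite there. E-boxes (CANNTG) were in 2 of 9 windows against 52.6%. At Lyl1 −1.4 kb, CAGCTG and CAGTTG lay 17 and 7 bp from the summit with no GATA motif in the window and no composite in the peak. The Tal1 promoter had its E-box at 44 bp. The Ets core AGGAA was in 2 of 9 windows against 51.9%, 7 bp from the summit at +19.3 kb and in 2 copies at −6.5 kb.

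Within 50 bp of the summits at +39.5, −3.5 and +47.3 kb none of these motifs was found, so the windows of the strongest and the 2 weakest Tal1 locus peaks were alike in this. At +39.5 kb the E-boxes lay at 57 and 80 bp and the GATA motif at 69 bp. The weak peaks also had matches outside the window. At +47.3 kb an E-box lay at 65 bp and a GATA motif at 71 bp, and at −3.5 kb an E-box lay at 79 bp. An absent match says only that these letters are not in the window.

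**Figure D4:**
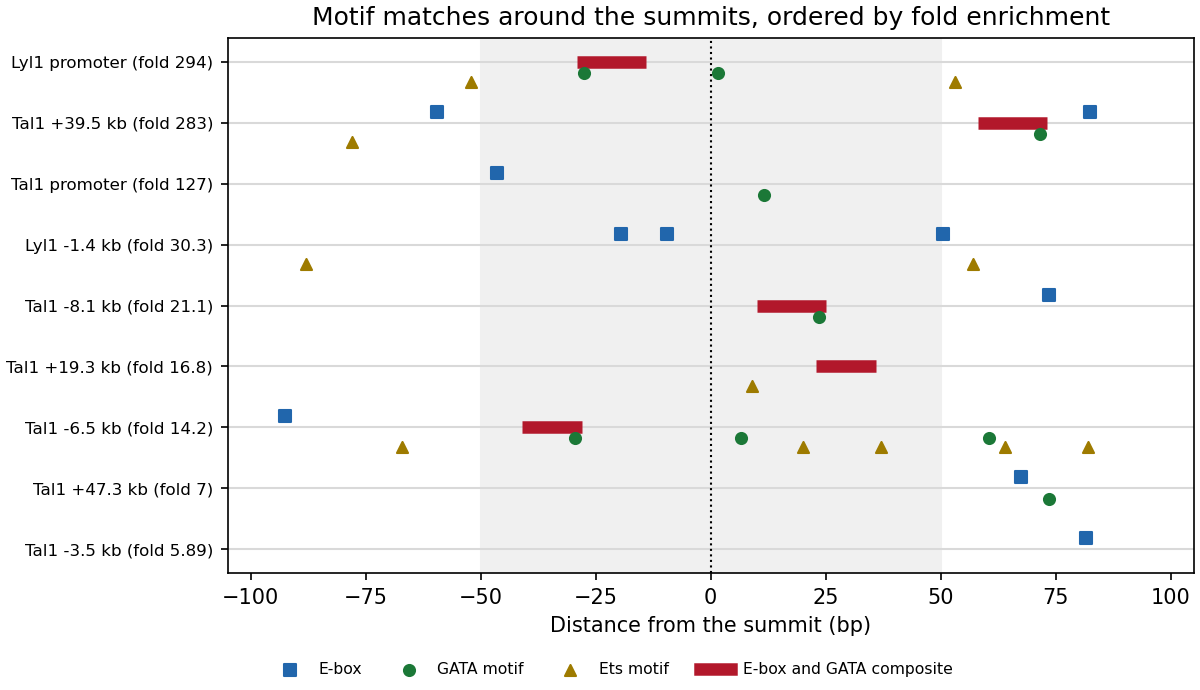
Motif matches by their distance from the summit in bp, on the plus strand from left to right, for the 9 peaks ordered from the highest fold at the top. Squares are E-boxes, circles GATA motifs, triangles the Ets core and red bars the composite of CTG and GATA, and the shaded band is the window of 50 bp on each side. The red bar falls in the band in 4 peaks and just to its right at Tal1 +39.5 kb.

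By position, 2 of the 9 peaks, the promoter peaks of Tal1 and Lyl1, lay within 1 kb of a start of a protein-coding gene, against 7.59% of all peaks. Summits were intergenic at 6 of 9 peaks, all in the Tal1 locus, against 51.1% of all peaks, and in a gene at 3. Another SCL summit lay within 12.5 kb of 8 of the 9, the exception being +19.3 kb. The share over all peaks was 34.5%, but the rule itself takes neighbouring peaks around 2 loci, so nothing is read from this count. The peaks were also wide, with a median of 723 bp against 397 bp. The GC content within 50 bp of the summit was 57.4% at the median against 50.5% over all peaks. It was highest at the Tal1 promoter, at 72.3%, and lowest at +47.3 kb, at 41.6%.

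SCL and LYL1, whose genes carried the bound promoters, share the bHLH fold. The annotated mouse proteins are 329 and 278 residues long, and a global alignment paired 264 residues of which 119, or 45.1%, were identical. The longest stretch without a gap was 68 residues with 53 identical, or 77.9%. TAL2, a shorter relative of 108 residues, was 59.3% identical to SCL over its length. Its longest stretch without a gap was 71 residues with 51 identical, or 71.8%, below the 77.9% of LYL1.

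Genes of the SCL pathway were given their peaks by the same rule. Of 11 genes for partners in the complex, all had at least 1 peak, against 29.0% of protein-coding gene names, and 4 had one with a fold of at least 100, against 0.913%. The median of the strongest fold was 34.3. These 4 were Runx1, a factor of blood stem cells, at 298.0 (283.3 to 313.2), Cbfa2t3, which encodes the corepressor ETO2, at 236.6 (228.0 to 245.5), Lmo2, the bridging protein of the complex, at 179.7 (169.0 to 190.9), and Gata1, the erythroid GATA factor, at 142.7 (130.4 to 155.9). The interval of Runx1 overlapped those of the Lyl1 promoter and Tal1 +39.5 kb peaks, and the other 3 were below both. Gata2, which acts in progenitors, reached 41.8 and Ldb1, which joins complexes across distance, 34.3. The genes of the E proteins that pair with SCL were lower, with Tcf12 at 14.6, Tcf3 at 10.7 and Tcf4 at 8.15, and so were the LDB1-binding Ssbp3 at 16.4 and Ssbp2 at 9.17.

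All 4 genes for Ets factors known at blood enhancers had peaks, against the same 29.0% of gene names, with Fli1 at 128.0, near the value of the Tal1 promoter, Erg at 66.2, Etv2 at 17.1 and Elf1 at 6.73. Among the other bHLH relatives, Tal2 had 2 peaks and reached 90.0 (81.6 to 98.99) at a site 17.4 kb from its start. The neural gene Nhlh2 had 1 peak of 10.5 and Nhlh1 had none. Of the close relatives, Tal1 and Lyl1 thus had the higher strongest folds, with intervals above that of Tal2. The strongest peaks of Runx1 and Lmo2 lay 321.6 and 64.0 kb from the nearest start, and assignment by distance does not show which gene a site acts on.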

How the data were processed

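SCL ChIP and input libraries from FLK1+ cells were sequenced with paired ends. The authors aligned reads to mm9 with Bowtie 1.1.2, removed duplicates and called peaks with MACS2 2.0.10, per the submitters' processing notes and the study's methods. The peak names show merged ChIP replicates against merged input, and the study names the irreproducible discovery rate (IDR). The deposited list gives positions, a fold (ratio to local background) and −log10 p and −log10 q by the authors. The deposited score equalled 10 times the −log10 p, truncated, in 100% of peaks and was not used. Depth per library is not given in the sources used here.

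Fragments and background at each summit were solved from the fold and −log10 p, and matched within 0.001 in 99.9% of peaks. A summit was assigned to the nearest of 69976 TSSs of protein-coding genes of GENCODE vM1 (NCBIM37), starts of their non-coding transcripts included. Named were all peaks of Tal1, Pdzk1ip1, Stil and Lyl1, the pathway lists, and flanking genes by position. Members, lists and alternatives were chosen with earlier results of these data known. No test was run over so few members of a pooled list, and values are set beside those of all peaks. Intervals are Poisson 95% intervals and cover counting error only. Proteins were translated from GENCODE coding sequences and aligned with BLOSUM62 (gap open 11, extend 1). Sequence was read from NCBIM37. The solution for fragments and the composite search were tested on simulated data. Python 3.11.15, pandas 2.3.3, numpy 2.4.6, scipy 1.17.1 and Biopython 1.88 were used.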

Additional observations from a re-analysis of the deposited data

How the results depend on the processing

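Of 23 alternatives for the counts, the median fold and the identity, 19 kept the value and 4 moved it, where kept means within 1.5 times for a count, within the interval of the middle peak (17.4 to 25.3) for the median fold and within 5 percentage points for the identity. A −log10 q cut-off of 50 raised the median fold to 30.3, because the 2 weakest peaks were dropped. Within 5 kb of a start there were 5 peaks instead of 2, against 20.7% of all peaks. With starts of protein-coding transcripts only, chosen after seeing the data, there were 4 within 5 kb against 17.9%, and the 9 peaks, the median fold and the 2 within 1 kb were as before. A local alignment, also chosen later, gave an identity of 55.3%. The number of peaks was 9 with starts of 3 gene types and 9 with genes extended by 10 kb, 7 at that cut-off and 7 at a fold of at least 10, and 8 with peaks within 500 bp joined, which merged the Lyl1 pair. Of 18 alternative ranks by −log10 p or fragments, 8 differed from the rank by fold by more than 1.5 times. By fold, −log10 p and fragments the ranks were 5, 1 and 9 for the Lyl1 promoter, 6, 3 and 16 for Tal1 +39.5 kb, and 110, 211 and 296 for the Tal1 promoter. The rank by fragments was 1148 against 1906 for Lyl1 −1.4 kb and 7655 against 12256 for Tal1 −3.5 kb. No paired analysis was possible because the numbered libraries have no separate values in the pooled list, and leaving out a library could not be run for the same reason. Counting precision limits the weak peaks most, and differences between the 2 differentiations were not analysed here.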
